A study of Mus musculus with 24 samples.

Results

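Peak lists of trimethylated lysine 4 of histone H3 (H3K4me3) were compared between 2 sorted subsets of wild-type group 3 innate lymphoid cells (ILC3s), the CCR6+ subset and the DN subset. The labels do not spell DN out; in work on ILC3s it commonly means double-negative for CCR6 and NKp46. The comparison rests on 4 of the 24 libraries of the series, 2 CCR6+ and 2 DN, chosen by their labels alone: wild type, H3K4me3, and subset. The cells were sorted from the small intestinal lamina propria of mice given in the labels as 6 to 8 weeks old, with 100000 cells per library. All 4 libraries carry the Cxxc1flox/flox genotype without Cre (here WT). In the knockout (KO) the same floxed alleles are combined with a Cre that is active in ILC3s and in some T cells. Cxxc1 encodes CFP1, a subunit of complexes that methylate lysine 4. Other libraries served only as further readouts: 4 KO H3K4me3 libraries of the same subsets, 2 WT H3K4me3 libraries of NKp46+ ILC3s, and 4 WT CFP1 libraries of the CCR6+ and DN subsets. The protocols in the labels also name aged mice and a culture medium, so age and handling are not settled, and the labels do not say whether replicates or subsets came from separate animals or from pools.

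ILC3s are lymphocytes without rearranged antigen receptors that secrete interleukin-22 and interleukin-17. CCR6+ ILC3s resemble the lymphoid tissue inducer (LTi) cells that start lymph node formation, carry lymphotoxin and can present antigen on MHC class II. NKp46+ ILC3s run a type 1 program under T-bet, encoded by Tbx21, with interferon-γ as its main cytokine, and cells without either marker are commonly placed between them. H3K4me3 marks the starts of active genes and of genes poised for activity, lies mostly over CpG-rich promoters, and spreads over a wider stretch at genes that a cell type transcribes strongly. In CUT&Tag, an antibody directs a transposase to the marked chromatin, and the released fragments are sequenced and called as peaks.

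Promoter sequences are shown for 7 genes whose peaks are described below: Ccr6, which defines the sort, H2-Aa and Arhgap28 with wider peaks or peaks in CCR6+ lists alone, and Ifng, Tigit, Prf1 and Cd5 with the reverse. Each runs from 250 bases before to 50 bases after the gene start on the gene's strand, from RefSeq on GRCm38.p6 (the assembly of mm10), with every CpG in capitals, and each overlaps the H3K4me3 region of its gene.
Ccr6, chr17:8235793-8236092, plus strand: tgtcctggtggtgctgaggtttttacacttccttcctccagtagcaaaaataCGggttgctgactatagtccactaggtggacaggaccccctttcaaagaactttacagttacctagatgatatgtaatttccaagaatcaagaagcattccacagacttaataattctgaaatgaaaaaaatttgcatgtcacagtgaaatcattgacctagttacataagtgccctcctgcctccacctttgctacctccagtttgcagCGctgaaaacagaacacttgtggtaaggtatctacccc
H2-Aa, chr17:34287774-34288073, minus strand: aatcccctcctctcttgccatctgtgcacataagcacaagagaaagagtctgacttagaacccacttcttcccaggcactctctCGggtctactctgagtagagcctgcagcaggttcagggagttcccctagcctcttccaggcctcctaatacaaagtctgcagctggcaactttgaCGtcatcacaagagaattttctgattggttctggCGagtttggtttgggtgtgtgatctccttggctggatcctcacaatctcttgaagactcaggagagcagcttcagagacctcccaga
Arhgap28, chr17:68004059-68004358, minus strand: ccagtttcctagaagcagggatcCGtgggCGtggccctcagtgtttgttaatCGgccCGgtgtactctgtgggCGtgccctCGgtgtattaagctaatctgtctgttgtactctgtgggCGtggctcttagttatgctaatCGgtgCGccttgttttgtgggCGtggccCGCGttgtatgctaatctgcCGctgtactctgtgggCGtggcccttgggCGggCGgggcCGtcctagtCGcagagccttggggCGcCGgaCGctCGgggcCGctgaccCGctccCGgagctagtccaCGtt
Ifng, chr10:118440796-118441095, plus strand: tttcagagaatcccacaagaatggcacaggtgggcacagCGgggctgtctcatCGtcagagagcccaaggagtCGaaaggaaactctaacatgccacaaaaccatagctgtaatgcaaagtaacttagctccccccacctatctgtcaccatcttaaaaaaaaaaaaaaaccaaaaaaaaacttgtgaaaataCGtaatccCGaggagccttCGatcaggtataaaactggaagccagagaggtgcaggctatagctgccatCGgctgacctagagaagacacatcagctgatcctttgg
Tigit, chr16:43664135-43664434, minus strand: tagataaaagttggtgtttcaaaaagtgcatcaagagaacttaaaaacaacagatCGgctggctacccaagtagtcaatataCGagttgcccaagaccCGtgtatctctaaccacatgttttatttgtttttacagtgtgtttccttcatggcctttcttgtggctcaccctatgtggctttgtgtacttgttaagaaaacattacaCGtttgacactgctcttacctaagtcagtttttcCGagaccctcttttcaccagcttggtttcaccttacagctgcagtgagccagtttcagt
Prf1, chr10:61297586-61297885, plus strand: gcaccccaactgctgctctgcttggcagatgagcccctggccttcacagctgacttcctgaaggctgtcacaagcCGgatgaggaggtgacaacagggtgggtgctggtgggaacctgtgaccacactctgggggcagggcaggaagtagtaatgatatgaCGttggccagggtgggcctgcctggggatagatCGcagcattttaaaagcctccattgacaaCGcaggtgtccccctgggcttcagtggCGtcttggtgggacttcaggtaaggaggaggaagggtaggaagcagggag
Cd5, chr19:10738925-10739224, minus strand: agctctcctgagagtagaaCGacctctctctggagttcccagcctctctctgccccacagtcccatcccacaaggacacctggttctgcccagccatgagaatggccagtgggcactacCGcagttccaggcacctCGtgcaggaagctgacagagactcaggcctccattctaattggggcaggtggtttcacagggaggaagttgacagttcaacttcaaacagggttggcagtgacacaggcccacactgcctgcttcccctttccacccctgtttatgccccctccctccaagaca
At the starts shown, the Arhgap28 promoter holds 26 CpG, against 2 at Ccr6, 3 at H2-Aa, 7 at Ifng, 5 at Tigit, 5 at Prf1 and 3 at Cd5. Another start of Ccr6 holds 10 CpG and another of Arhgap28 holds 6, and both lie outside the H3K4me3 region of the gene.

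The 4 lists were of similar length, and the replicates differed more than the subsets in peak width. On the autosomes and the X chromosome, the CCR6+ lists held 15284 and 14926 peaks in replicates 1 and 2, and the DN lists held 13773 and 15206. The median peak width was 976 and 1167 b in CCR6+ and 966 and 1187 b in DN, so replicate 1 had the narrower peaks in both subsets. The peaks covered 15.87 and 18.54 Mb in CCR6+ and 14.15 and 19.19 Mb in DN. Over replicates, CCR6+ minus DN was 0.062 for log2 peak number (exact two-sided permutation p = 0.667, n = 2 per group), with 0.15 in replicate 1 and −0.027 in replicate 2. It was −0.0048 for log2 median width (exact permutation p = 1.0) and 0.058 for log2 covered length (exact permutation p = 1.0), and 2 libraries against 2 can give no p below 0.333. The lists carry no read counts, so depth is unknown, and an unlisted peak means that none was called in that library. All 4 lists held a peak at Xist, the RNA of the inactive X chromosome, and none on the Y chromosome.

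Transcription factors of innate lymphocytes were listed alike in both subsets. Of 28 such factors, 25 had a peak at the gene start in every list and the other 3 in none. A gene start here is a window of 1000 b on either side. Over all 21631 protein-coding genes, 10419 were listed in all 4. Of 16 T cell markers, 11 and 13 were listed in CCR6+ and 14 and 14 in DN. No T cell library was compared, so whether the counts of transcription factors set ILC3s apart from T cells was not tested. The Ccr6 window, at the chemokine receptor used for the sort, held a peak in both CCR6+ libraries and in DN replicate 2 but not in DN replicate 1. Of 12 epithelial markers 1 was listed in CCR6+ replicate 1 and 2 in each other library, and of 10 stromal and endothelial markers 2 were listed in each library; markers of T, B and myeloid cells are given beside the results that they move with. The libraries come from cells in bulk, so a mark in fewer cells and a narrower mark in all cells cannot be told apart.

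Most genes were listed alike. Of 21631 protein-coding genes, 11471 had a peak at the gene start in 1 or more of the 4 lists and 10419 in all 4. A peak in both CCR6+ libraries and neither DN library was found at 152 genes, which is 1.33% of the 11471, and the reverse at 39 genes, or 0.34%. The spread between replicates was of the same order: 24 genes (0.209%) were listed in both replicate 1 and neither replicate 2 library, and 117 genes (1.02%) in both replicate 2 and neither replicate 1 library. Taken apart, replicate 1 had 466 genes in CCR6+ and not in DN and 135 the other way, and replicate 2 had 336 and 188, so the CCR6+ excess was present in both. DN replicate 1, the shortest list, alone lacked a peak at 189 genes that the other 3 lists held. With 2 libraries in each group these counts have no test, and leaving out 1 library can only enlarge them: the CCR6+ set then held 194 to 341 genes and the DN set 62 to 136.

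**Figure D1:**
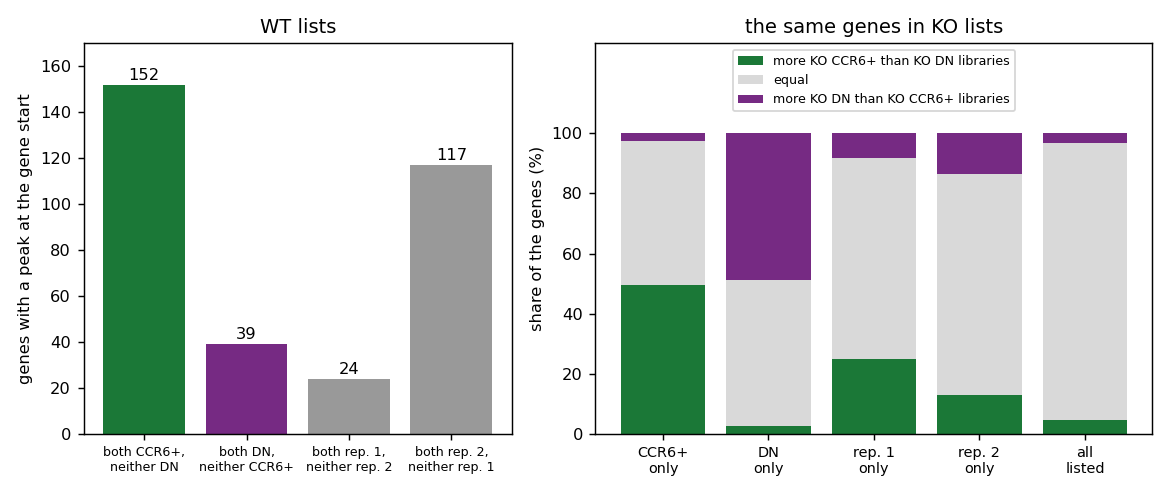
Genes with an H3K4me3 peak at the gene start in only 1 subset or only 1 replicate number of the 4 WT libraries (left, number of genes), and the share of each set by presence in the KO CCR6+ and KO DN libraries (right, percent of the set). The 152 CCR6+ genes and 39 DN genes stand beside 24 and 117 genes split by replicate, and the green and purple shares are larger in the CCR6+ and DN sets than over all 11471 listed genes.

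The KO libraries, which the choice of these genes did not use, leaned the same way. Among the 152 genes of the CCR6+ lists, 75 (49.3%) were listed in more KO CCR6+ than KO DN libraries, 4 (2.63%) in fewer, and 73 in as many. Among the 39 genes of the DN lists, 19 (48.7%) were listed in more KO DN libraries, 1 (2.56%) in fewer, and 19 in as many. Over all 11471 listed genes the shares were 4.41% toward CCR6+ and 3.11% toward DN, and the 117 genes of replicate 2 gave 12.8% and 13.7%. The 24 genes of replicate 1 gave 25% toward CCR6+ and 8.33% toward DN. Of the 11471 genes, 10419 were listed in all 4 WT libraries, and these gave 1.96% and 2.08%. Among the 10160 genes listed in no WT library, 397 (3.91%) went toward KO CCR6+ and 42 (0.413%) toward KO DN. The KO lists thus leaned toward CCR6+ also at genes without a WT peak. The full split was rarer: 9 of the 152 genes had a peak in both KO CCR6+ and neither KO DN library, and 2 of the 39 the reverse. The KO lists are themselves uneven, with 11794 and 18032 peaks in CCR6+ and 12446 and 16422 in DN, and 140 of the 152 genes were listed in KO CCR6+ replicate 2 against 42 in KO CCR6+ replicate 1.

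Of the 17 gene lists, only that of the TNF superfamily and its receptors had a member among the 152 genes, 1 of 23, while the LTi-like list (0 of 14) and the list of MHC class II presentation (0 of 12) had none. That member, Tnfsf4, which encodes OX40 ligand, a costimulator of T cells that LTi cells are known to carry, had a peak of 739 and 1608 b near its gene ends in the 2 CCR6+ libraries and none in DN, over chr1:161395553-161397160. No KO library listed Tnfsf4 at its windows, but KO CCR6+ replicate 2 had a peak of 391 b in the region. With the peak summit required inside the window, Tnfsf4 was listed in as large a share of DN as of CCR6+ libraries. Wdfy4, which cross-presenting dendritic cells need, had peaks of 823 and 916 b in CCR6+ and none in DN, and was listed in both KO CCR6+ and neither KO DN library. Its region lies at chr14:33184590-33185765, and with windows at both annotated ends of every gene the subsets listed Wdfy4 equally often.

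Ranked by fold enrichment within each list, the 10 leading genes of the CCR6+ set were Zfp574, Rhou, Arhgap28, Kbtbd12, Wdfy4, Nfe2l3, Carmil1, Kif6, Tbc1d9 and Tmem150c. Arhgap28, a GTPase-activating protein, had peaks of 450 and 546 b at chr17:68003721-68004292, at percentiles 54.2 and 55.1 of the 2 CCR6+ lists, and was listed in both KO CCR6+ and neither KO DN library. Rhou, an atypical small GTPase, had peaks of 351 and 463 b at percentiles 34.2 and 76.9. Zfp574 was a matter of peak edges: its region was listed in all 4 libraries at 1334 and 1573 b in CCR6+ and 1174 and 1446 b in DN, and only the CCR6+ peaks reached the window. Such edge cases were few, since 148 of the 152 genes lay at a region that no DN library listed, and 127 had no DN peak anywhere in the gene.

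Other members of the CCR6+ set, named after their values were seen, were the innate receptors Tlr4 and Nod2, the B cell linker Blnk, the surface glycoprotein Cd24a, the MHC class II chaperone subunit H2-DMb2, the cytokine genes Il12a, Ebi3 and Il33, and the developmental regulators Eya1, Six4, Foxd1, Hoxa7, Zic1 and Id4. Tlr4 had peaks of 488 and 1119 b in the 2 KO CCR6+ libraries and none in KO DN, so the WT pattern was repeated there. Cd24a was listed in both KO CCR6+ libraries and in 1 KO DN library. Il33 was listed in no KO library. On the X chromosome lay 11 of the 152 genes (7.24%), against 1 of the 39 DN genes (2.56%) and 3.24% of all listed genes.

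Among the 39 genes listed in DN alone were 6 members of the 17 lists, 1 each from 6 lists: Prf1, Gzmk, Cd5, Tnfrsf4, Il4 and Il2. Prf1, which encodes perforin, the pore-forming protein of killer cells, had peaks of 407 and 427 b at chr10:61297306-61298118 in the DN libraries and none in CCR6+. It was listed in both WT NKp46+ libraries and in 1 KO DN and no KO CCR6+ library. Gzmk, a granzyme, had peaks of 499 and 1550 b in DN, and in the KO 1 DN library listed it and no CCR6+ library did. Cd5, a receptor that dampens T cell receptor signals, had peaks of 794 and 922 b in DN at chr19:10738061-10738986, and was listed in both KO DN and neither KO CCR6+ library. Both cytotoxic genes and Cd5 thus had peaks in the DN lists of both genotypes, while the CCR6+ lists had none.

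Tnfrsf4, which encodes OX40, the receptor of the Tnfsf4 product, had peaks of 766 and 2319 b in DN and none in CCR6+, the reverse of its ligand. In the KO it was listed in 1 CCR6+ and 1 DN library. Among the cytokine genes, Il4 had peaks of 2329 and 2809 b in DN and none in WT CCR6+, but both KO CCR6+ libraries listed it, at 367 and 900 b beside 974 and 2510 b in KO DN. Il2 was listed in both DN and neither WT CCR6+ library, with fold enrichments of only 4.96 and 4.05. Il21, Izumo1r of the folate receptor family and the cholesterol hydroxylase Ch25h were also in the DN set, and were named after their values were seen. The 10 leading genes of the DN set were Kif14, Ifi214, Atp9a, Fgf2, Rab11fip4, Elapor1, L1cam, Cd5, Wnt5b and Igf2, of which Kif14 also had a CCR6+ replicate 1 peak of 615 b outside its window. With a window of 500 b or the summit rule, Kif14 was listed in as large a share of both subsets. At a fold of 5 or more, Prf1, Gzmk, Tnfrsf4 and Il4 were each listed in 1 DN library fewer and Il2 in none.

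Promoters of the CCR6+ set had a higher median CpG count than those of the DN set. The median count of CpG in the 300 bases of the promoter was 21.0 over 115 genes of the CCR6+ set with an entry and 9.0 over 32 genes of the DN set, beside 23.0 at 8529 genes listed in all 4 libraries and 4.0 at 7951 genes listed in none. The ranges between quartiles overlapped, from 12 to 28.5 in the CCR6+ set and from 5 to 21.25 in the DN set. The replicate sets lay at 19.5 and 16. These are descriptions without a test.

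**Figure D2:**
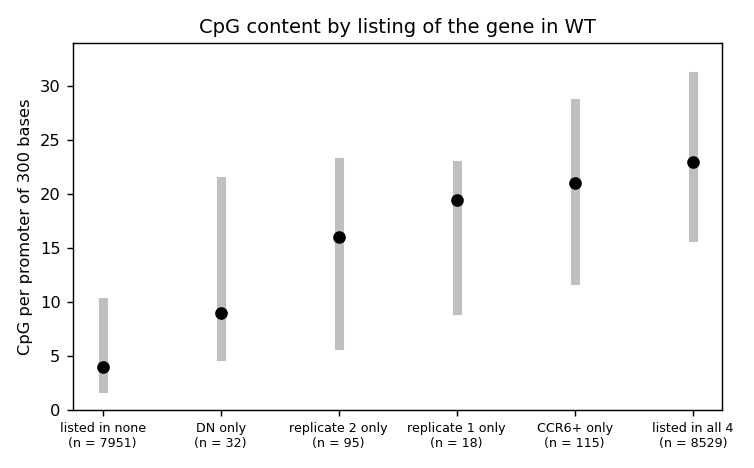
CpG per promoter of 300 bases by how the gene was listed in the 4 WT libraries; points are medians, bars run from the lower to the upper quartile, and n is the number of genes with a promoter entry. The DN set lies at a median of 9.0 and the CCR6+ set at 21.0, close to the 23.0 of genes listed in all 4.

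Genes of either set were listed in both WT NKp46+ libraries, or with CFP1, less often than all listed genes. In WT NKp46+ cells, 105 of the 152 CCR6+ genes were listed in neither H3K4me3 library, 40 in 1 and 7 in both. Of the 39 DN genes, 20 were listed in neither, 16 in 1 and 3 in both. Over all 11471 listed genes, 542 were in neither and 10115 in both. Of the genes split by replicate number, 12 of 24 in replicate 1 and 28 of 117 in replicate 2 were in neither. A CFP1 peak in any of the 4 WT CCR6+ and DN libraries lay at 8 of the 152 genes (5.26%) and 4 of the 39 (10.3%), against 61.0% of all listed genes. The genes split by replicate number were as low, at 4.17% and 4.27%. The regions themselves were narrow. Of 17812 regions merged over libraries, 552 (3.1%) were listed in CCR6+ alone, with median widths of 563 and 595 b. Another 273 (1.53%) were listed in DN alone, with 495 and 695 b. The 12190 regions listed in all 4 libraries had median widths of 1092 and 1272 b in CCR6+ and 1032 and 1296 b in DN. Regions in 1 subset alone also had a lower median fold enrichment, the authors' value for a peak, than the shared regions. It was 4.95 and 4.95 in the CCR6+ lists and 4.74 and 4.9 in the DN lists. Split by replicate number, 162 regions (0.909%) were listed in replicate 1 alone and 520 (2.92%) in replicate 2 alone. Those regions were alike, with median widths from 426.5 to 671 b and median folds from 4.51 to 4.77, so these traits were not particular to the subset sets.

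Widths were then compared at the 12190 shared regions on a log2 scale with each library centred on its median. With limma and Benjamini-Hochberg adjustment over all regions, no region passed an adjusted p of 0.05 (0.0%), and the smallest adjusted p was 0.814. At an unadjusted p under 0.05 there were 305 regions wider in CCR6+ and 208 wider in DN. Together these were below the share of 0.05 that the threshold alone would pass without any difference. Both CCR6+ libraries exceeded both DN libraries at 1662 regions (13.6%) and the reverse held at 1799 (14.8%), whereas both replicate 1 libraries exceeded both replicate 2 libraries at 4106 regions (33.7%) and the reverse held at 2407 (19.7%). In simulated data with 200 regions changed by 1 on the log2 scale, the same fit recovered 0.0%, and by 3 it recovered 87.5%. In that setting a 2-fold change was below what the fit could detect. The simulated libraries varied independently, whereas the real same-numbered libraries deviated together, so the limit for the real data may differ. None of the width differences below passed the test. Counts of wider regions refer to this centred scale, whereas widths in b are not centred and can overlap where the centred values do not.

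The regions with the largest differences toward CCR6+ lay at H2-Aa, Eya1, Cilp2, Neo1 and Lpcat2. H2-Aa, the α chain of the class II molecule I-A, measured 2100 and 1879 b in CCR6+ and 500 and 756 b in DN over chr17:34285837-34287947, a log2 difference of 1.67 (SE 0.182, limma adjusted p = 0.814). The difference was 1.99 in replicate 1 and 1.34 in replicate 2, and the groups did not overlap. Eya1, a transcriptional coactivator of organ development, measured 875 and 1559 b in CCR6+ and 341 and 408 b in DN (1.62, SE 0.227, limma adjusted p = 0.814). Its DN peaks missed the window at the gene ends, so Eya1 is also among the 152 genes. With windows of 500 b or 2000 b, the whole gene or the summit rule, the subsets listed it equally often. Neo1, a receptor of netrins, measured 1195 and 1598 b against 782 and 366 b, but its difference in the KO was −0.072.

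The regions with the largest differences toward DN lay at Tigit, Cd28, Slamf6, Cd6 and Igsf9b. Tigit, an inhibitory receptor, measured 562 and 386 b in CCR6+ and 1338 and 1661 b in DN over chr16:43663372-43665032 (−1.71, SE 0.271, limma adjusted p = 0.814), with −1.33 in replicate 1 and −2.08 in replicate 2. In the KO the Tigit difference was −0.36. Cd28, the T cell costimulator, measured 451 and 2147 b in CCR6+ and 2784 and 2825 b in DN, so most of its difference came from CCR6+ replicate 1 (−2.71 in replicate 1 and −0.37 in replicate 2). Cd6 behaved alike, at 346 and 2170 b against 1984 and 2402 b. Slamf6 measured 330 and 1132 b against 1273 and 2037 b, and it was wider in DN in both replicates. Without CCR6+ replicate 1 the differences were −0.52 at Cd28, −0.14 at Cd6 and −0.64 at Slamf6, in place of −1.54, −1.36 and −1.43.

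Among 14 LTi-like markers, 11, 13, 11 and 12 were listed in CCR6+ replicates 1 and 2 and DN replicates 1 and 2, so presence hardly separated the subsets, and width did so for some. Of the 11 whose region was listed in all 4 libraries, 6 were wider in both CCR6+ than in both DN libraries on the centred scale and 0 the reverse, beside 12.2% and 14.6% of the 10466 genes with such a region. The median difference was 0.26 on the log2 scale, against −0.016 over all genes, with 0.13 in replicate 1 and 0.20 in replicate 2. None passed the fit. Without DN replicate 1 the median was 0.13, and without CCR6+ replicate 1 it was 0.39.

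The 6 LTi-like genes were Ccr6, Arg1, Lta, Cxcr5, Tnfsf11 and Il1r1. The Ccr6 region, chr17:8235766-8239426, measured 2799 and 3553 b in CCR6+ and 944 and 2619 b in DN (0.98, SE 0.394, limma adjusted p = 1.0); the DN replicate 1 peak began inside the gene, beyond the window. Lta, which encodes lymphotoxin α, measured 868 and 946 b against 575 and 632 b (0.56, SE 0.121, limma adjusted p = 0.878). Arg1, the arginine-degrading enzyme found in LTi cells, measured 653 and 1215 b against 376 and 570 b. All 3 separated the subsets, yet the DN replicate 2 peak at Ccr6 was nearly as wide as that of CCR6+ replicate 1.

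Cxcr5, the receptor that leads cells to B cell follicles, measured 2587 and 2785 b in CCR6+ and 1532 and 2632 b in DN. Tnfsf11, which encodes RANK ligand, measured 1926 and 2688 b against 1716 and 2019 b, and Il1r1, the interleukin-1 receptor, 2558 and 2771 b against 2208 and 2727 b. In bases, before centring, the subsets overlapped at all 3 of these genes, and the differences were small beside the gap between replicates. Nrp1, Cd4, Ltb and Il2ra overlapped on both scales, for example Ltb, which encodes lymphotoxin β, at 2392 and 2373 b against 2271 and 2404 b. Il17f was listed in CCR6+ replicate 2 alone, Il17a in no library, and Ccr7 in all but CCR6+ replicate 1. In the KO only 3 of the 11 regions were listed in all 4 libraries, 1 wider in CCR6+ and 2 wider in DN.

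The type 1 program leaned toward DN in both presence and width. Of 24 genes, 13 and 18 were listed in the CCR6+ libraries and 16 and 21 in the DN libraries, 5 genes in more DN than CCR6+ libraries and 0 in fewer. Over the 11471 listed genes, 261 (2.28%) were in more DN and 627 (5.47%) in more CCR6+ libraries. Of the 13 with a region in all 4 libraries, 8 were wider in both DN than in both CCR6+ libraries and 0 the reverse, and 3 of the 8 (Ifng, Il12rb2 and Nkg7) also separated in bases. The median difference was −0.75 on the log2 scale, with −1.17 in replicate 1 and −0.12 in replicate 2. All 13 were wider in DN in replicate 2 and 11 in replicate 1, but the size rested on 1 library: without CCR6+ replicate 1 the median was −0.14, and without CCR6+ replicate 2 it was −1.27.

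Ifng, the interferon-γ gene, measured 613 and 1047 b in CCR6+ and 1484 and 1827 b in DN over chr10:118440832-118442658 (−1.07, SE 0.208, limma adjusted p = 0.814). It was wider in DN in both replicates, by −1.36 and −0.78, and in the KO it measured 490 and 1171 b in CCR6+ and 1438 and 1695 b in DN. Il12rb2, a chain of the interleukin-12 receptor, measured 565 and 1023 b against 1205 and 1726 b (−0.95, SE 0.241, limma adjusted p = 1.0). Tbx21 measured 1006 and 2687 b against 2470 and 2964 b, and Il12rb1 667 and 2110 b against 1924 and 2316 b. Ifng and Il12rb2 thus differed in each replicate, while at Tbx21 and Il12rb1 the CCR6+ replicate 2 width exceeded that of DN replicate 1.

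The other 4 genes without overlap after centring were Fasl, Nkg7, Serpinb9 and Stat4. Fasl, the death receptor ligand, measured 608 and 2351 b in CCR6+ and 1962 and 2513 b in DN, and Stat4, which carries the interleukin-12 signal, 1331 and 1560 b against 1547 and 1803 b. In bases the subsets overlapped at Fasl, Stat4 and Serpinb9, as they did at Tbx21 and Il12rb1. Cxcr3 and Gzmb overlapped after centring, Cxcr3 at 574 and 2767 b against 1647 and 4060 b. Il18r1, Il18rap and Cxcr6 were alike in both subsets, for example Il18r1 at 2368 and 2493 b against 2197 and 2569 b.

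Ncr1, which encodes NKp46, was listed in both replicate 2 libraries and in neither replicate 1 library, at 447 b in CCR6+ and 1846 b in DN. Klrb1c showed the same pattern, at 1878 and 1833 b. Xcl1, a chemokine, was listed in DN replicate 2 alone at 1983 b, and Ccl3 there at 625 b. Gzma and Ccl5 were missing in CCR6+ replicate 1 alone. Klrd1, Klrk1 and Klri2 were listed in none of the 4. In the KO libraries, all 8 regions of the list that could be measured were wider in DN (median −0.71), beside 4673 of 9831 genes. The replicates were uneven there too. In the KO, Tbx21 measured 810 and 2809 b in CCR6+ against 2492 and 2954 b in DN, and so differed mostly in replicate 1. Fasl did likewise, while Cxcr3 differed in both replicates, at 434 and 2480 b against 1050 and 3702 b.

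T cell markers moved with the type 1 program. Of 16 markers, 11 and 13 were listed in CCR6+ and 14 and 14 in DN, and of 11 measured regions 8 were wider in both DN libraries and 0 the reverse (4 and 0 in bases), with a median of −0.60 (−0.17 without CCR6+ replicate 1). Over all genes with a region, 14.6% were wider in both DN libraries and 12.2% in both CCR6+ libraries. Cd3e, a chain of the T cell receptor complex, measured 1461 and 2247 b in CCR6+ and 1845 and 2358 b in DN, and Lck, its kinase, 945 and 1837 b against 2379 and 2166 b. Cd3d was missing in CCR6+ replicate 1 alone, and Foxp3 and Icos were listed in no library. Cd3e, Lck and Cd3d were named after their values were seen. The part of T cell chromatin in the DN widths was not tested. Of 10 NK and ILC1 markers, 3, 4, 4 and 5 were listed in CCR6+ replicates 1 and 2 and DN replicates 1 and 2, with Eomes in both replicate 2 libraries alone.

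**Figure D3:**
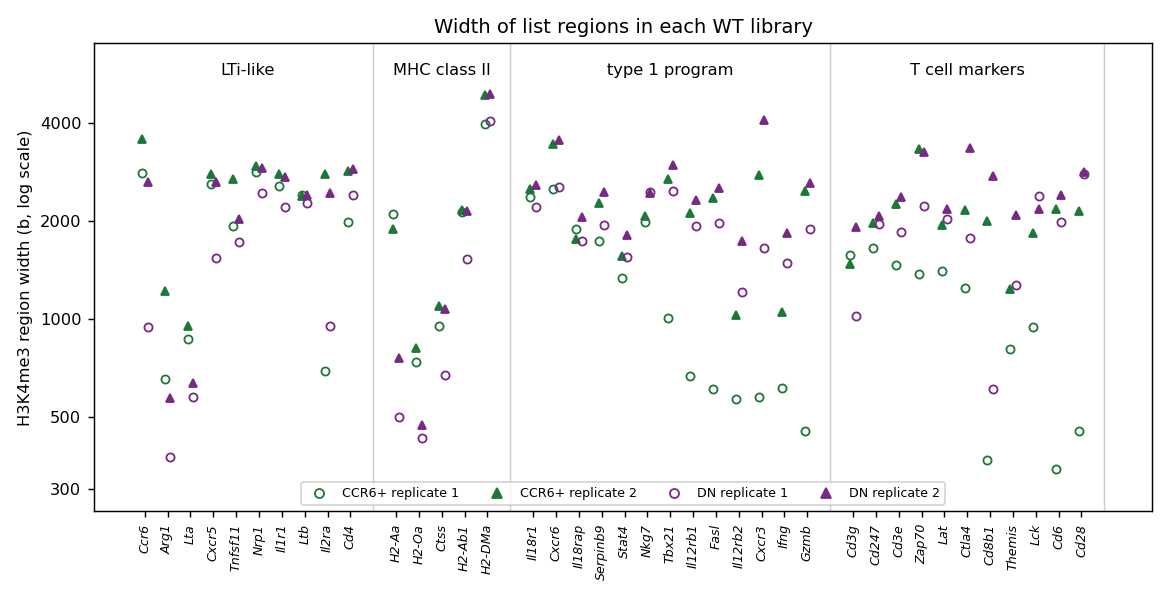
Width in bases (log scale) of the region at each gene in the 4 WT libraries, for list members listed in all 4, of which 1 is not shown; green marks CCR6+, purple DN, open circles replicate 1 and triangles replicate 2. Ccr6, Lta and H2-Aa are wider in CCR6+, Ifng and Il12rb2 in DN, and the open green circles of CCR6+ replicate 1 lie lowest at most type 1 and T cell genes, for example Cd28 at 451 b.

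Genes of MHC class II presentation leaned toward CCR6+. Of 12 genes, 7 and 10 were listed in CCR6+ and 5 and 8 in DN, 5 in more CCR6+ than DN libraries and 1, Cd86, in fewer, beside 5.47% and 2.28% of all listed genes. Of 5 measured regions, 4 were wider in both CCR6+ libraries (H2-Aa, H2-Oa, Ctss and H2-Ab1) and 0 in both DN libraries, beside 12.2% and 14.6% of genes with a region. The median difference was 0.24 on the log2 scale, 0.42 in replicate 1 and 0.051 in replicate 2, and 0.14 without DN replicate 1. H2-Oa, a modulator of peptide loading, measured 735 and 812 b against 430 and 472 b, and H2-Ab1, the β chain of I-A, 2121 and 2161 b against 1527 and 2141 b. Cd74, the invariant chain, and H2-Eb1 were listed in both CCR6+ libraries and in DN replicate 2. Ciita, the master regulator of class II genes, was listed in CCR6+ replicate 2 alone. H2-Aa and H2-Oa separated the subsets by a wide margin, whereas in bases H2-Ab1 and Ctss overlapped.

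In the KO, 3 of 4 measured class II regions were wider in CCR6+ (median 0.26). Markers of B and myeloid cells were counted in the WT lists, and the part of such chromatin in the class II peaks was not tested. Of 8 B cell markers, Cd79b and Blk were listed in all 4 libraries and the other 6, among them Ms4a1, in none. Cd79b was wider in CCR6+, at 1304 and 1523 b against 383 and 1278 b. Of 13 myeloid and dendritic markers, 2 were listed in each CCR6+ library and 1 in each DN library, and 10 were in none; Flt3 was listed in all but DN replicate 2. H2-Oa, H2-Ab1, Ctss, Cd74, H2-Eb1, Ciita and Cd79b were named after their values were seen.

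**Figure D4:**
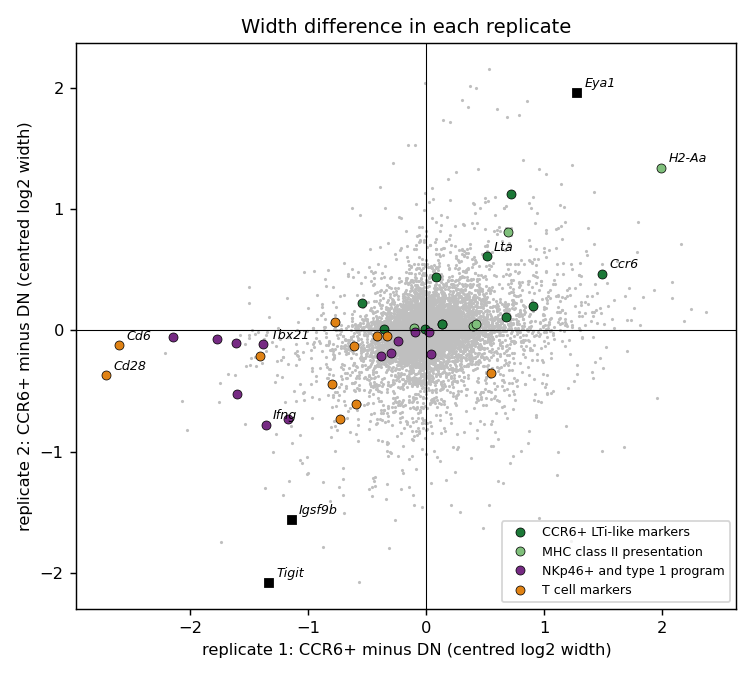
Difference in centred log2 width, CCR6+ minus DN, in replicate 1 (horizontal) and replicate 2 (vertical) for the 12190 shared regions (grey) and list members (coloured); black squares are Tigit, Igsf9b and Eya1. H2-Aa (1.99 and 1.34) and Tigit (−1.33 and −2.08) differ in both replicates, whereas Cd28 (−2.71 and −0.37) and Cd6 differ mostly in replicate 1.

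The lists below had median width differences between −0.071 and 0.0008. Over all 10466 genes with a region, 12.2% were wider in both CCR6+ and 14.6% in both DN libraries. Transcription factors of innate lymphocytes had 3 members wider in CCR6+ and 3 wider in DN out of 25 measured, with a median of −0.014, and 13 measured housekeeping genes had 0 and 2 with a median of −0.025. Notch pathway genes had 3 and 1 of 12, ILC3 effectors and cytokine receptors 2 and 1 of 17, and TNF superfamily members and receptors 4 and 3 of 15. Of 20 measured chemokine and homing receptors, 5 were wider in CCR6+ (Ccr6, Cxcr5, Ackr3, Gpr183 and S1pr1) and 2 in DN (Itga1 and Itga2). The median of that list was −0.071. By presence, 6 of its 30 genes were in more DN than CCR6+ libraries and 2 in fewer, beside 2.28% and 5.47% of all listed genes. Of 17 neuroimmune receptors 10 were measured, 4 wider in CCR6+ (Vipr2, Ramp1, Ramp3 and Calcrl) and 2 in DN (Vipr1 and Adora2a).

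Calcrl, Ramp1 and Ramp3 together encode receptors of the peptides CGRP and adrenomedullin, and are named after their values were seen. Calcrl measured 1201 and 1559 b in CCR6+ and 729 and 953 b in DN, and Ramp1 1751 and 2332 b against 1266 and 1650 b. In the KO the differences were 0.88 at Calcrl, 0.48 at Ramp1 and 0.25 at Ramp3, the same direction in all 3. The neuroimmune list as a whole did not lean: its WT median was −0.025. Of its 8 regions measured in the KO, 4 were wider in CCR6+ and 4 in DN. Of 12 ILC2 markers, 3, 4, 3 and 7 were listed in CCR6+ replicates 1 and 2 and DN replicates 1 and 2, with Il1rl1 and Il9r in DN replicate 2 alone. Il22, the signature ILC3 cytokine, had no peak at its windows in any of the 4 lists.

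Ranks of fold enrichment were compared within each library over the same 12190 regions, as normal scores of the rank. A rank is a place in a library's own order and not a level. No region passed with limma and Benjamini-Hochberg adjustment (0.0%, smallest adjusted p = 1.0), and at an unadjusted p under 0.05 there were 191 regions higher in CCR6+ and 93 higher in DN. These 191 and 93 regions were together below a share of 0.05 of the 12190. Both CCR6+ libraries ranked a region above both DN libraries at 1307 regions (10.7%) and the reverse held at 1544 (12.7%), whereas replicate numbers split 4005 (32.9%) and 3394 (27.8%). Leaving out CCR6+ replicate 2 gave 3 regions higher in DN, Fbxl2 among them, and leaving out any other library gave none.

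The regions with the largest rank differences were other genes than those of the widths. Toward CCR6+ they included Trmt9b, Sema3d, Palld and Ctsf. Sema3d, a secreted guidance cue, stood at percentiles 61.9 and 55.3 in CCR6+ and 8.13 and 8.55 in DN (score difference 1.60, SE 0.256, limma adjusted p = 1.0), with widths of 772 and 1218 b against 377 and 493 b. Trmt9b stood at 34.8 and 61.6 against 2.92 and 6.12, and Ctsf, a lysosomal protease, at 60.1 and 84.5 against 24.4 and 11.5. Sema3d and Trmt9b were also wider in both CCR6+ libraries, while the widths of Ctsf overlapped.

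Toward DN they lay at Rdh12, Fam89a, Fbxl2, Lzts1 and Aplp1. Aplp1, a relative of the amyloid precursor protein, stood at percentiles 5.91 and 9.71 in CCR6+ and 33.7 and 55.6 in DN, and measured 405 and 478 b against 704 and 1158 b. Fbxl2 stood at 10.7 and 74.5 against 87.6 and 91.8, so CCR6+ replicate 1 stood apart. At the signature genes rank and width parted in both directions. Of the 11 LTi-like regions, 1 (Lta) ranked higher in both CCR6+ libraries and 3 (Tnfsf11, Il1r1 and Nrp1) in both DN libraries, beside 9.4% and 12.2% of genes with a region, so by rank the list did not lean toward CCR6+. Tnfsf11 and Il1r1 were among those wider in CCR6+, and Il1r1 stood at percentiles 2.84 and 4.58 against 6.96 and 5.66. Type 1 genes ranked higher in CCR6+ at 1 and in DN at 2 of 13, T cell markers at 0 and 2 of 11, and class II genes at 2 and 0 of 5. Tigit ranked higher in both CCR6+ libraries (9.18 and 13.0 against 4.75 and 6.62) although it was wider in DN, and the Ifng ranks overlapped, at 20.6 and 9.71 against 17.2 and 28.2.

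The KO libraries gave the width differences the same sign more often than not. Of 10335 regions listed in all 4 WT and all 4 KO libraries, 51.2% were wider in KO CCR6+. Of all those wider in both WT CCR6+ libraries, 792 of 1224 (64.7%) were wider in KO CCR6+, with a median of 0.048, and of those wider in both WT DN libraries 947 of 1535 (61.7%) were wider in KO DN, with a median of −0.049. Among those wider in both WT CCR6+ libraries by more than 0.5 on the log2 scale, 61 of 83 (73.5%) were wider in KO CCR6+, with a median of 0.25. Among those wider in both WT DN libraries by as much, 56 of 75 (74.7%) were wider in KO DN, with a median of −0.26. By rank, 165 of 234 regions (70.5%) and 141 of 188 (75%) with a score difference over 0.5 kept their direction, and 61.2% and 59.3% without that minimum. These shares describe regions, which are not independent of each other, and have no test.

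**Figure D5:**
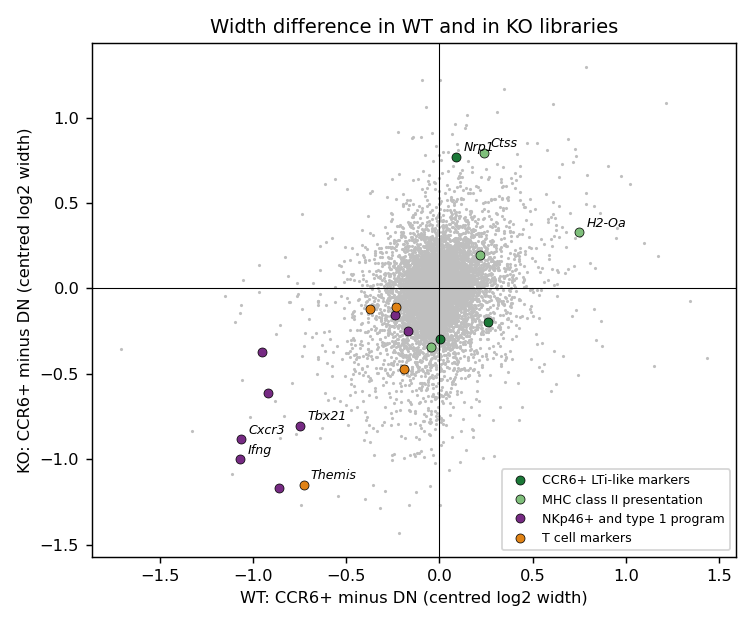
Difference in centred log2 width, CCR6+ minus DN, in WT (horizontal) and KO (vertical) libraries for regions listed in all 8 (grey) and list members (coloured). All 8 type 1 genes and all 4 T cell markers shown lie below 0 on both axes, with Ifng at −1.07 and −1.0, and 3 of the 4 class II genes lie above 0 on both.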

How the data were processed

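Reads were handled with MACS2 2.2.7.1, Bowtie2 2.3.5.1, fastp 0.19.7, ChIPseeker 1.28.3 and Picard on mm10, per the submitters' processing notes. No label used here gives their settings or a control library. The authors deposited 1 peak list per library, called separately for each, with a fold enrichment per peak (a ratio), the −log10 of its q-value and a summit offset per peak (the position, in bases, of its highest signal). Fold enrichments served only to rank or filter peaks within a library. Depth is unknown, and both the number and the width of called peaks can grow with it.

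Peaks on the 19 autosomes and X were assigned to 21631 protein-coding RefSeq genes (GRCm38.p6) where they overlapped by 1 b or more a window of 1000 b on either side of the gene start. The start was known for 17274 genes; for the other 4357 genes both annotated ends were used. Overlapping peaks of the 4 libraries were merged into regions, and a region's width in a library is the length its peaks cover. A gene's region is the one at its window with the longest covered length. Widths (log2, centred on each library's median) and normal scores of ranks were fitted with limma 3.58.1 in R 4.3.3, p-values adjusted by Benjamini-Hochberg and called under 0.05, on the 4 WT libraries without covariates. The width fit was tested on simulated data from 12190 regions. The CpG count of a gene with several starts is that of the richest. Python 3.11.15, NumPy 2.4.6, pandas 2.3.3 and SciPy 1.17.1 were used. Nothing says that replicates came from separate animals, so a p-value here covers the spread between libraries, which may be technical.

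Named genes were all LTi-like and type 1 members, members of other lists that differed by 2 libraries, the 10 genes per direction with the best mean rank among those listed in 1 subset alone, and the 5 regions per direction with the largest difference in width and in rank without overlap; predicted genes were passed over. A few picks of this rule are not reported here, though the counts include them. The 17 gene lists and the members were chosen with earlier results of these data known.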

Additional observations from a re-analysis of the deposited data

How the results depend on the processing

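With 2 libraries per group, leaving out 1 library moved most values. The range over the 4 libraries left out in turn was −0.0097 to 0.13 for log2 peak number, −0.15 to 0.14 for log2 median width and −0.16 to 0.28 for log2 covered length, so no direction held. The gene counts ranged from 194 to 341 for CCR6+ alone, 62 to 136 for DN alone, 47 to 130 for replicate 1 alone and 186 to 306 for replicate 2 alone, as fewer libraries have to meet the rule. Regions ranked higher in DN ranged from 0 to 3, and the 3 calls came without CCR6+ replicate 2. The median width difference of the T cell list ranged from −0.88 to −0.17, that of the type 1 list from −1.27 to −0.14, that of the LTi-like list from 0.13 to 0.39 and that of the class II list from 0.14 to 0.41. Among named genes the width difference changed sign at Cxcr6 (−0.17 to 0.064), Gzmb (−2.21 to 0.014), Il18r1 (−0.066 to 0.078), Il18rap (−0.24 to 0.081), Il2ra (−1.05 to 0.74) and Ltb (−0.12 to 0.13).

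Keeping only peaks of fold enrichment 5 or more turned the log2 median width difference to 0.0019 and gave 102 genes for replicate 1 alone, and a peak summit inside the window gave 88; the cause was not tested. The counts for CCR6+ alone and DN alone stayed within 132 to 176 and 37 to 51 under the windows of 500 b, 2000 b, the whole gene and both gene ends (the last chosen after seeing the data), the summit rule and the fold filter. For single named genes, the share of libraries listed (CCR6+ minus DN) was counted as moved in 29 cases and not in 351. Some of the 351 still changed: at Ccr6 the share went from 0.5 to 0 with the 2000 b window, the whole gene or the fold filter. Without DN replicate 2 it was 1.0 at Ccr6, and it also shifted at Ccl3 and Ccl4. For genes listed in 1 subset alone, leaving out a library could not change the share, as the choice of these genes fixed it. Among the 29 cases, the share went to 0 at Eya1 and Zfp574 (windows of 500 b and 2000 b, whole gene, summit rule), Kif14 (500 b, summit rule), Tnfsf4 (summit rule), Il2 (fold of 5 or more), Elapor1, Rab11fip4 and Wnt5b (whole gene), and Igf2, Tmem150c and Wdfy4 (both gene ends). It came to 0.5 or −0.5 in the others: at Gzmk, Il4, Prf1, Tnfrsf4 and Tnfsf4 with the fold filter, and at Tnfsf4, Tbc1d9, Il4 and Kif14 with other windows. No normalization, merging distance or variance trend gave a called region, and the list medians kept their sign without centring; the list medians were added after seeing the data.

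Same-numbered libraries deviated together (correlation of deviations 0.404 for widths over 12190 regions and 0.639 for ranks), but 2 pairs do not establish a pairing. With the replicate number as a replicate block, 0 regions passed for width (smallest limma adjusted p = 0.561) and 0 for rank (0.0979), and at an unadjusted p under 0.05 there were 862 and 1228. Both counts were above a share of 0.05 of the 12190 regions, unlike the counts of the fits without the block. The block left the log2 peak number at 0.062 (exact sign-flip p = 1.0).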
